A study of Mus musculus with 8 samples.

Results

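The genes followed here across every array of the study were 10 genes of the perinatal liver: the plasma protein genes Alb, Afp, Ttr, Ahsg, Ambp, Fga, Fgb and Fgg, and the hepatocyte genes Cps1 and Fabp1. They are 10 of the 18193 genes with a probe set, and 18 of the 45101 probe sets name one of them and no other gene. They were chosen because their signal differed between arrays of the same group, so the levels per array and the differences between the arrays of a group are given as descriptions without a test. The 10 genes had intensities of 155 to 7002 in both saline arrays and in the second array of nicotine 1.5, and in the other 5 arrays none was above 43.7.

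According to the labels, the arrays held total RNA from posterior palate taken from BALB/c pups at postnatal day 1. Some values go against that label: the stomach gene Cym was read at 5168 and 4999.9 in the saline arrays, and Alb at 3399 or higher in these and in nicotine 1.5 replicate 2. The mothers received sterile saline or nicotine through an osmotic minipump, a small implant that delivers a drug steadily for weeks. The 4 groups were saline, nicotine at 1.5 mg/kg/day, nicotine at 3.0 mg/kg/day and nicotine at 4.5 mg/kg/day, with 2 Affymetrix arrays each. Strain, age, pump and tissue label were the same in all groups, and no genetic change is named. The labels call the arrays of a group biological replicates, but whether an array held 1 pup or a pool, and whether the litters differed, the labels do not say. The p-values therefore measure the spread between these samples.

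The liver of a late fetus or newborn secretes most plasma proteins. Albumin and alpha-fetoprotein carry hormones, lipids and metals in blood, and alpha-fetoprotein is the fetal one, which is shut down after birth. Transthyretin carries thyroid hormone and the retinol-binding protein, and is also made by the choroid plexus of the brain and by pancreatic islets. Fetuin-A (Ahsg) holds calcium phosphate in solution, and Ambp encodes a precursor that is cleaved to alpha-1-microglobulin and the protease inhibitor bikunin. The alpha, beta and gamma chains of fibrinogen (Fga, Fgb, Fgg) assemble into the clotting protein. Cps1, the mitochondrial enzyme that starts the urea cycle, and Fabp1, a fatty acid-binding protein of the cytoplasm, stay inside the cell, and both are also made by absorptive cells of the intestine. HNF1, HNF4, FOXA and C/EBP proteins are transcription factors known to drive genes of this kind.

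Several of the genes lie next to each other and several share short sequences before their start. In the order of protein-coding genes of RefSeq, Alb and Afp are neighbours on chromosome 5, and Fgg, Fga and Fgb follow one another on chromosome 3. RefSeq promoter sequences of build GRCm38.p6 were used for 8 of the 10 genes, and those of Ttr and Cps1 were left out. The 200 bases before the start were searched on both strands. The letters GTTAAT, a core of the site bound by HNF1, occurred in 5 of the 8 (Alb, Afp, Fga, Fgb and Fabp1) and in 5.06% of all 32851 promoters. The 5 sequences are shown because they come from carriers, fibrinogen chains and the cytoplasmic Fabp1 and yet hold the same motif. Capitals mark GTTAAT or, for Fga and Fgb, the same motif read on the other strand (ATTAAC). They are written 5′ to 3′ in the direction of the gene, from chr5:90460670-90460869 on the plus strand (Alb), chr5:90490514-90490713 on the plus strand (Afp), chr3:83025953-83026152 on the plus strand (Fga), chr3:83049864-83050063 on the minus strand (Fgb) and chr6:71199679-71199878 on the plus strand (Fabp1).
Alb: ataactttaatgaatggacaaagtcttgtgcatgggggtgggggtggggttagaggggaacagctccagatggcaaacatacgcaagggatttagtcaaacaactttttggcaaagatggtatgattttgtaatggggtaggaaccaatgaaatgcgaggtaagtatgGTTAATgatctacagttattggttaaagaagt
Afp: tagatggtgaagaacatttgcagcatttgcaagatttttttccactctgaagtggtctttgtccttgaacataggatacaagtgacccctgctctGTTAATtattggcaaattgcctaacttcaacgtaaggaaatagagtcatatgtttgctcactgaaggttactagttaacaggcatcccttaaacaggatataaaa
Fga: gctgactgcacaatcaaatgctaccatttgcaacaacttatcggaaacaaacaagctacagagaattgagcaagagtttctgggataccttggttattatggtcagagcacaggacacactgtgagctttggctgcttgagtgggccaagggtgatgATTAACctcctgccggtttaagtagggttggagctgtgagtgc
Fgb: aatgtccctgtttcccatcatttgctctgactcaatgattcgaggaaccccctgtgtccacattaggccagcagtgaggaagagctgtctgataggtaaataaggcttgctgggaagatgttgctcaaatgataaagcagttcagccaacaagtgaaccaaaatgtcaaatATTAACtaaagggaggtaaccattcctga
Fabp1: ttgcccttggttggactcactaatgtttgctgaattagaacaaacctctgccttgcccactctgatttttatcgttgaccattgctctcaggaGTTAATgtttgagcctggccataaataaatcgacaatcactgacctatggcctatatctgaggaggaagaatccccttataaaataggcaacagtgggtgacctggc
The motif lay close to the start in Alb (32 to 27 bases before it), Fgb (29 to 24) and Fga (43 to 38), and farther away in Afp (105 to 100) and Fabp1 (107 to 102). The letters TTNNGCAA, in which N is any base and which C/EBP proteins can bind, occurred in 6 of the 8 (all but Fgg and Ambp) and in 7.47% of all promoters. The TATA box letters TATAAA occurred in Afp and Fabp1 and in 9.96% of promoters. The FOXA letters TGTTTAC occurred in none of the 8 and in 2.51% of promoters. No match overlapped another, and a match of letters is not a measured binding site.

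The deposited values are intensities, the brightness of a probe set on a linear scale. Array medians lay between 20.7 and 25.4, so a value in this range is that of the middle probe set. Saline replicates 1 and 2 and nicotine 1.5 replicate 2 stood apart from the other 5 in liver genes, and the saline arrays also in genes of stomach and intestine, as given below. Of 12 palate genes listed, 10 had a probe set, and their median log2 level lay between 5.71 and 7.48 in the 8 arrays. In each array 5 to 7 of the 10 were above the 60th percentile of all probe sets. Meox2 was read at 72.2 to 450, Mn1 at 63.2 to 322, Tgfb3 at 67.3 to 274 and Osr1 at 48.1 to 232, regulators and signals of the palatal shelf. Tbx22 (2.17 to 5.67) and Pax9 (6.23 to 17.8), picked after their values were seen as genes whose loss is known to cleave the palate, were below the median intensity of every array.

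The carriers of blood were high in both saline arrays and in nicotine 1.5 replicate 2. Alb was read at 3399 and 7002 in saline and at 5001 in nicotine 1.5 replicate 2, but at 19.8 in nicotine 1.5 replicate 1, 22.8 and 26.0 at nicotine 3.0, and 20.4 and 25.2 at nicotine 4.5. Its lowest value in the 3 high arrays and its highest in the 5 low ones did not overlap. Afp was read at 3967 and 4825 in saline, at 22.3 and 4220 at nicotine 1.5, at 2.45 and 4.88 at nicotine 3.0, and at 3.03 and 21.0 at nicotine 4.5. Afp has 5 probe sets, and 1 of them stayed between 1 and 14.3 in all arrays, the sole exception among the 18 probe sets. The other 17 were each more than 4-fold brighter in every one of the 3 high arrays than in any of the 5 low ones. The genes were chosen for differences between these arrays, and the share of all probe sets with such a gap was not counted. Ttr was read at 2897 and 4475 in saline, at 33.4 and 3076 at nicotine 1.5, at 4.18 and 2.83 at nicotine 3.0, and at 7.47 and 7.21 at nicotine 4.5.

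The mineral-binding and inhibitor genes were more uneven between the saline arrays than Alb, Afp and Ttr. Ahsg was read at 298 and 2725 in saline, at 2.44 and 986 at nicotine 1.5, at 13.7 and 6.54 at nicotine 3.0, and at 5.46 and 7.92 at nicotine 4.5. Ambp was read at 401 and 2578 in saline, at 6.71 and 902 at nicotine 1.5, at 2.35 and 7.34 at nicotine 3.0, and at 6.95 and 3.59 at nicotine 4.5. For both genes saline replicate 1 was the lowest of the 3 high arrays and still stood far above the 5 low arrays.

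The fibrinogen chains, whose products are joined in 1 protein, kept the same order of arrays. Fga was read at 841 and 3966 in saline, at 2.78 and 2688 at nicotine 1.5, at 2.27 and 2.11 at nicotine 3.0, and at 9.49 and 24.5 at nicotine 4.5. Fgb was read at 155 and 2467 in saline, at 2.06 and 968 at nicotine 1.5, at 3.90 and 4.47 at nicotine 3.0, and at 2.31 and 5.51 at nicotine 4.5. Fgg was read at 219 and 2775 in saline, at 2.15 and 968 at nicotine 1.5, at 2.72 and 4.04 at nicotine 3.0, and at 1.52 and 2.42 at nicotine 4.5. Each chain was highest in saline replicate 2, lower in nicotine 1.5 replicate 2, lower again in saline replicate 1, and at 24.5 or lower in the rest.

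Cps1 and Fabp1, which act inside the cell, had another order among the 3 high arrays. Cps1 was read at 1425 and 1884 in saline, at 21.2 and 482 at nicotine 1.5, at 10.8 and 12.98 at nicotine 3.0, and at 22.9 and 9.13 at nicotine 4.5. Fabp1 was read at 3860 and 5646 in saline, at 43.7 and 495 at nicotine 1.5, at 8.56 and 8.13 at nicotine 3.0, and at 8.77 and 4.46 at nicotine 4.5. For these genes both saline arrays were above nicotine 1.5 replicate 2.

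**Figure D1:**
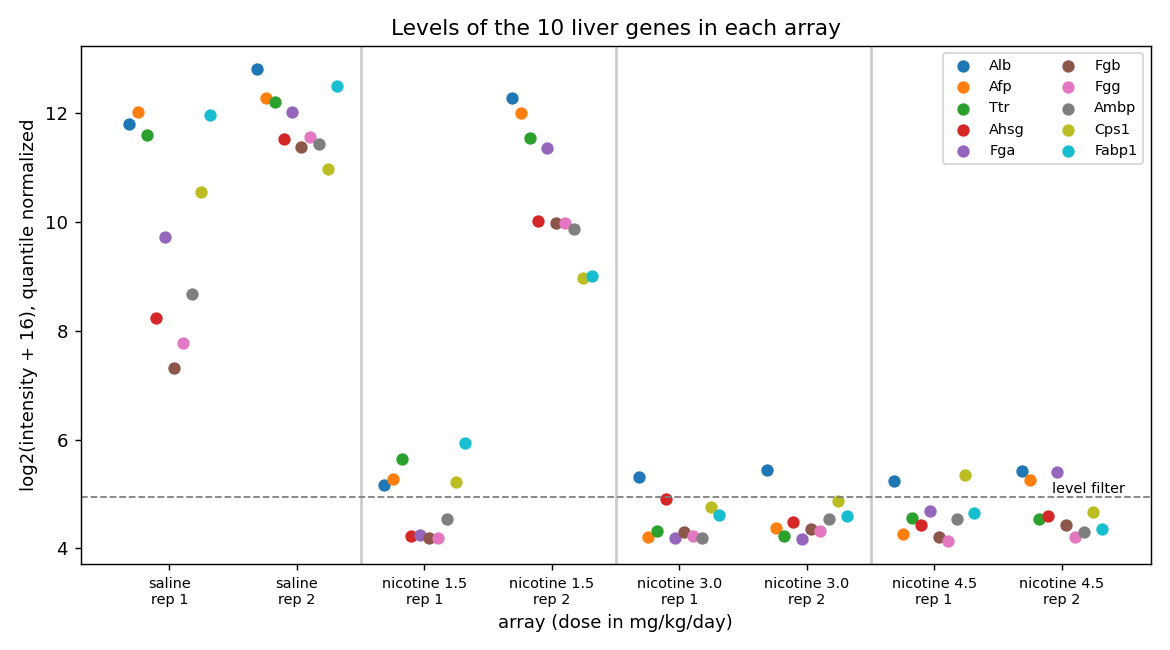
The plot shows the quantile-normalized log2(intensity + 16) level of each of the 10 genes (points) in each of the 8 arrays, with 1 probe set per gene and a dashed line at the level of 4.94 below which genes were left out of the tests. All 10 genes stood at 7.31 or higher in both saline arrays and in nicotine 1.5 replicate 2, and at 5.93 or lower in the other 5 arrays.

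For the tests, values were taken as log2(intensity + 16), brought to 1 distribution across arrays and reduced to the brightest probe set of each gene. On this scale the median of the 10 genes was 10.14 and 11.79 in saline, 4.85 and 9.999 at nicotine 1.5, 4.32 and 4.43 at nicotine 3.0, and 4.55 and 4.57 at nicotine 4.5. All 10 passed the filter on low levels, a mean of 4.94 over the arrays, and they passed it through the 3 high arrays. The added 16 understates a difference in which one of the values is low.

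Within the nicotine 1.5 group all 10 genes were 4-fold or more higher in replicate 2 than in replicate 1, as were 1.25% of the 13592 genes tested (2.25% were 4-fold apart in either direction). The differences ran from 3.08 log2 units for Fabp1 and 3.75 for Cps1 to 7.12 for Alb and 7.12 for Fga. In saline, 5 of the 10 were 4-fold or more higher in replicate 2 (Ahsg, Ambp and the 3 fibrinogen chains), as were 1.93% of the genes tested (2.76% in either direction), with the 10 genes between 0.26 (Afp) and 4.06 (Fgb) higher in log2 units. At nicotine 3.0 the replicates differed by -0.42 to 0.35 and at nicotine 4.5 by -0.68 to 1.0. None of the 10 was 4-fold apart there, as 0.118% and 0.353% of all genes were (0.0147% and 0.125% with replicate 2 the higher). The median absolute difference of all genes between the arrays of a group was 0.30 in saline and 0.26, 0.16 and 0.26 at the rising doses.

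The 3 high arrays were then set against each other by probe set, with saline replicate 2 as 100%. Saline replicate 1 held 48.5% of its Alb intensity, 10.9% of its Ahsg, 15.6% of its Ambp, 21.2% of its Fga, 6.29% of its Fgb and 7.89% of its Fgg. Nicotine 1.5 replicate 2 held more of each of these, at 71.4%, 36.2%, 34.98%, 67.8%, 39.2% and 34.9%. The reverse held for Cps1 and Fabp1: saline replicate 1 held 75.6% of the Cps1 and 68.4% of the Fabp1 intensity, and nicotine 1.5 replicate 2 held 25.6% and 8.77%. A further Fabp1 probe set gave 79.7% and 15.9%.

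Probe sets of one gene did not give one ratio. The 4 Ttr probe sets put saline replicate 1 at 21.5%, 32.8%, 50.4% and 64.7% of saline replicate 2, and the 4 Afp probe sets that gave signal put it at 44.3%, 74.2%, 81.8% and 82.2%. Across the 17 probe sets the log2 share in saline replicate 1 correlated with the log10 intensity in saline replicate 2 at r = 0.48. The points are probe sets of the same arrays, are not independent and have no test. All 8 of these Ttr and Afp probe sets had a larger share in nicotine 1.5 replicate 2 than in saline replicate 1, by deposited intensity. After quantile normalization the order turned on the probe set: the Afp probe set used for the tests stood at 12.015 in saline replicate 1 against 12.005 in nicotine 1.5 replicate 2, while a further one stood at 11.22 against 11.60. The Ttr probe set used was at 11.59 and 11.55, and a further one at 9.32 and 9.71.

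**Figure D2:**
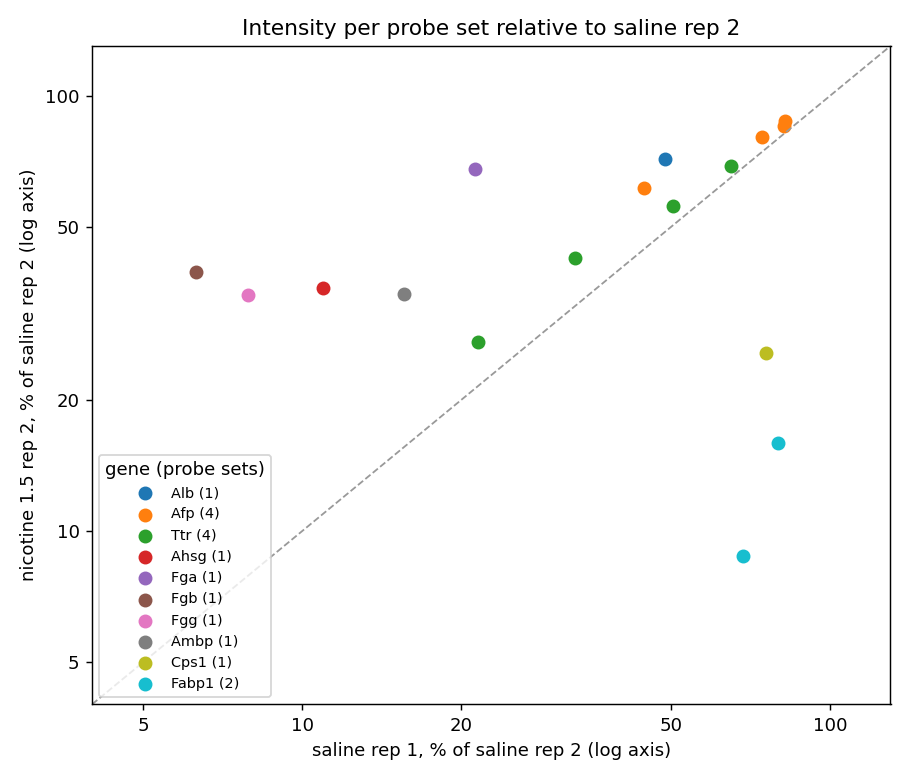
Each point is 1 probe set, with its deposited intensity in saline replicate 1 (horizontal) and in nicotine 1.5 replicate 2 (vertical) as a percent of that in saline replicate 2, on log axes, and the dashed line marks equal shares. Cps1 and both Fabp1 probe sets lie below the line, with 8.77% to 25.6% on the vertical axis, and all other probe sets lie above it.

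Saline replicate 1 and nicotine 1.5 replicate 2 were compared on the log2 scale as the pair in which the order of the 10 genes split. Fabp1 was 2.96 log2 units higher in the saline array and Cps1 1.58, while Afp (0.01) and Ttr (0.04) were level and Alb was at -0.49. Ambp (-1.21), Fga (-1.64), Ahsg (-1.78), Fgg (-2.20) and Fgb (-2.67) were higher in the nicotine array. Fabp1 was the single gene of the 10 that was 4-fold or more higher in the saline array, as were 1.88% of all genes, and Fgb and Fgg were the pair that was 4-fold or more higher in the nicotine array, as were 0.603%. Other genes that act inside the cell went both ways. The 16 enzymes of amino acid and glucose metabolism had a median of -0.54, and the 7 urea cycle genes, Cps1 among them, one of 0.86.

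Markers of other organs differed between the same arrays. Of 17 measured genes of intestinal absorptive cells, where Fabp1 and Cps1 are also made, 13 were 4-fold or more higher in saline replicate 1 than in nicotine 1.5 replicate 2, with a median difference of 3.76. Fabp2, the intestinal relative of Fabp1, was read at 4770 and 3095 in saline and at 138 or lower in all nicotine arrays. Apoa4, a lipoprotein of absorptive cells, was read at 4057 and 2762 in saline and at 120 or lower in the nicotine arrays. The summed intensity of the intestinal list was 18384 and 11467 in saline, 708 and 667 at nicotine 1.5, and 251 to 280 at the higher doses. Its part in the Fabp1 and Cps1 signal was not tested.

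The genes of the stomach divided the arrays by treatment rather than by the level of the liver genes. Cym, which encodes the milk-clotting enzyme chymosin, was read at 5168 and 4999.9 in saline and at 11.9 or lower in the nicotine arrays. The summed intensity of the 12 stomach genes was 11071 and 10741 in saline and 196 to 222 in the nicotine arrays, nicotine 1.5 replicate 2 included (222). Kidney genes were high in saline replicate 2 alone, where the 11 measured genes summed to 3407 against 290 in saline replicate 1 and 140 to 184 in the nicotine arrays. In saline replicate 2 the kidney genes Slc34a1, a phosphate transporter, and Umod, which encodes uromodulin, were read at 637 and 544.

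**Figure D3:**
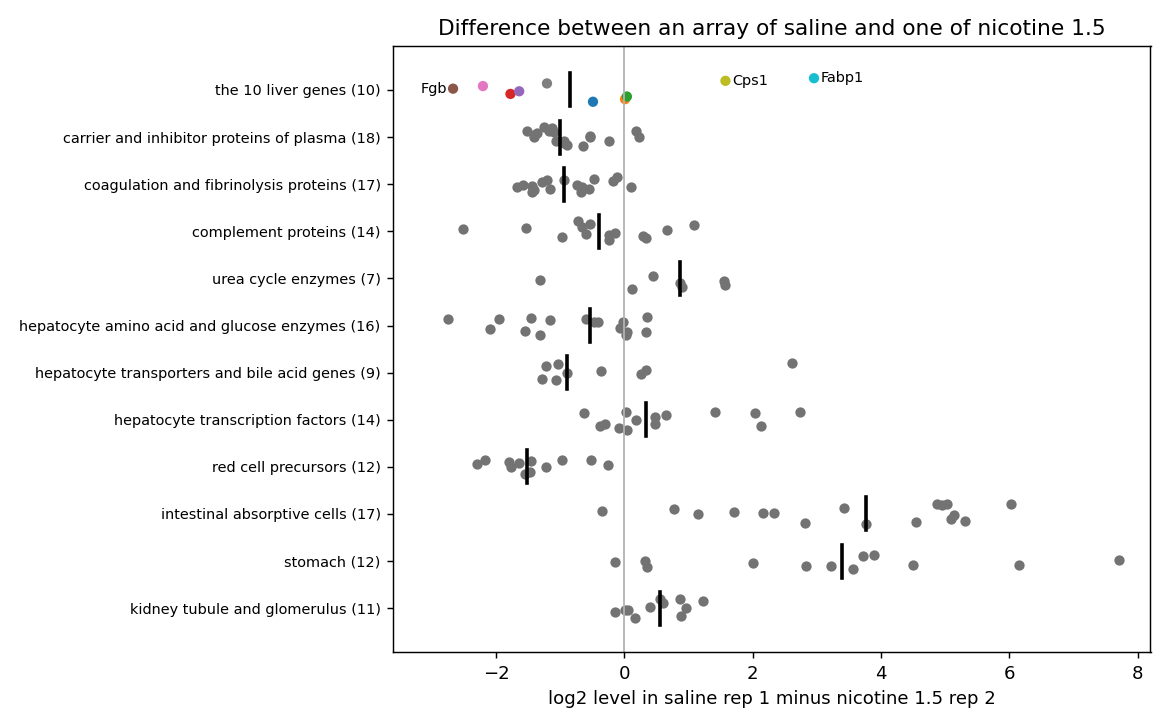
Each point is 1 gene, placed by its log2 level in saline replicate 1 minus that in nicotine 1.5 replicate 2, with the 10 liver genes in colour, 11 gene lists in grey and black bars at list medians. Fabp1 (2.96) and Cps1 (1.58) lie on the side of the intestinal and stomach genes, with medians of 3.76 and 3.39, and Fgb (-2.67) on the side of the plasma protein lists, with medians of -0.39 to -1.0. The urea cycle (0.86), kidney (0.55) and hepatocyte transcription factor (0.33) lists also have medians on the side of Fabp1. Those of the amino acid and glucose enzymes (-0.54), transporters (-0.89) and red cell precursors (-1.51) lie on that of Fgb.

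Red cell precursors, which mature in the perinatal liver, followed the liver genes in part. Slc4a1, the anion exchanger of red cells, was read at 191 and 1459 in saline, at 84.5 and 832 at nicotine 1.5, at 337 and 316 at nicotine 3.0 and at 535 and 198 at nicotine 4.5. The summed intensity of the 12 measured genes was 817 in saline replicate 1, 6123 in saline replicate 2, and 1064 and 3236 at nicotine 1.5. At the higher doses it was still 1722 to 4122, mostly from Alas2, the first enzyme of heme synthesis in red cells (1322 to 3206). In these arrays none of the 10 liver genes was above 26.0 in the probe set used for the tests. Markers of choroid plexus, a further source of Ttr, had medians of 4.54 to 6.47 over the arrays and of 5.27 and 6.47 in saline, where Folr1, a folate receptor, was read at 427 and 101. The pancreas genes had medians of 4.39 to 4.86 in all arrays.

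Signs of RNA quality also differed between arrays. The 3′ probe set of actin divided by the 5′ one gave 1.74 and 1.65 in saline, 1.39 and 1.20 at nicotine 1.5, 1.14 and 1.05 at nicotine 3.0, and 1.15 and 0.954 at nicotine 4.5. For Gapdh this ratio was 1.31 and 1.22 in saline and 0.912 to 1.14 in the nicotine arrays. Within the nicotine 1.5 group, replicate 2, in which the liver genes were high, had the lower actin ratio. The part of RNA quality in these results was not tested.

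Lists of other secreted products of hepatocytes had their highest medians in the same arrays, with exceptions among single genes. The 18 measured carrier and inhibitor genes had a median log2 level of 6.84 and 10.08 in saline, 4.77 and 8.06 at nicotine 1.5 and 4.83 to 5.07 at the higher doses, and all 18 were highest in saline replicate 2. Hpx, the heme-binding hemopexin, was read at 265 and 2947 in saline, at 6.14 and 493 at nicotine 1.5 and at 9.47 or lower at the higher doses. The 17 coagulation and fibrinolysis genes had medians of 5.83 and 9.24 in saline, 4.70 and 7.12 at nicotine 1.5, and 4.67 to 4.88 at the higher doses, and 16 were highest in saline replicate 2. Kng1, the precursor of bradykinin, was read at 395 and 3506 in saline, at 3.85 and 1040 at nicotine 1.5 and at 14.6 or lower at the higher doses. The 14 complement genes had medians of 5.58 and 7.75 in saline, 4.95 and 6.10 at nicotine 1.5, and 4.97 to 5.16 at the higher doses. Hp kept 252 and 155 at nicotine 3.0, against 27.8 in nicotine 1.5 replicate 1. Hc was read at 182 in nicotine 3.0 replicate 1, above its 63.7 in saline replicate 1. Hrg, Pros1, Agt, Serpinf1, C6 and C9, picked after their values were seen, were among others brighter in some of the low arrays than in saline replicate 1.

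Enzymes and regulators of the hepatocyte also followed with exceptions. The 7 urea cycle genes, Cps1 among them, had medians of 7.29 and 8.52 in saline, 5.24 and 6.43 at nicotine 1.5, and 4.71 to 5.35 at the higher doses. Otc, which takes the product of Cps1 to citrulline, was read at 202 and 374 in saline, at 9.11 and 57.5 at nicotine 1.5 and at 6.02 or lower at the higher doses. The 16 enzymes of amino acid and glucose metabolism had medians of 5.73 and 9.26 in saline and 4.89 and 7.72 at nicotine 1.5. At the higher doses their medians were 5.16 to 5.45. Pck1, which starts glucose synthesis from oxaloacetate and also acts in fat, was an exception and was read at 429 and 1452 in saline, at 49.2 and 409 at nicotine 1.5, at 1189 and 1302 at nicotine 3.0 and at 985 and 266 at nicotine 4.5. Fah, the last enzyme of tyrosine breakdown, picked after its values were seen, was another, at 165 and 724 in saline, 42.7 and 362 at nicotine 1.5, 561 and 604 at nicotine 3.0, and 609 and 132 at nicotine 4.5. The 9 transporter and bile acid genes had medians of 5.42 and 7.17 in saline, 4.69 and 5.70 at nicotine 1.5, and 4.40 to 4.67 at the higher doses.

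**Figure D4:**
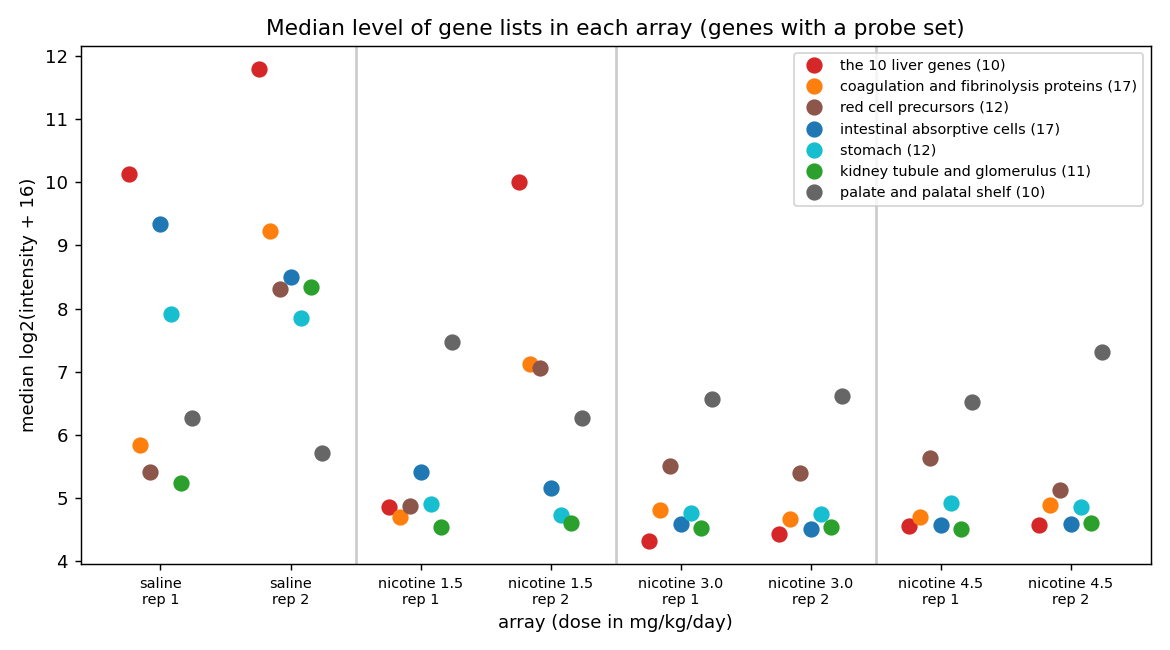
The plot gives the median log2(intensity + 16) level of 7 gene lists in each of the 8 arrays, with the number of measured genes in brackets. The 10 liver genes (red) were high in both saline arrays and in nicotine 1.5 replicate 2. The intestinal and stomach genes (blue, cyan) were high in the saline arrays, and the kidney genes (green) in saline replicate 2. The coagulation genes (orange) peaked at 9.24 (saline replicate 2), followed by 7.12 (nicotine 1.5 replicate 2). Their median for saline replicate 1 was lower, at 5.83, against 4.67 to 4.88 at the higher doses.

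Genes with the most similar pattern were sought by Pearson correlation over the 8 arrays among all genes tested. Closest to the mean of the 10 was Igfbp1, a liver-secreted binding protein of insulin-like growth factors (r = 0.997), followed by Apoh (0.992), Apof (0.991), G6pc and Serpina1b (both 0.988), Apoa2 (0.987), Cfi (0.986), and Kng1, Itih3 and Apoa1 (all 0.985). Serpina1b has near-identical copies whose signal this probe set may share. The 10 genes correlated with one another at 0.871 to 0.998. These values rest on the split of 3 high and 5 low arrays, and carry no test.

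The nearest genes were then listed for each of the 10. Ahsg and Fgg were closest to Pzp, a broad protease inhibitor of plasma (r = 0.998 and 0.999), Ambp to Apoh (0.999), Fgb to Fgg (0.998), Fga and Alb to Igfbp1 (0.997 and 0.992), and Afp and Ttr to each other (0.996). Cps1 was closest to Apoa1 (0.993). Fabp1 was closest to Hnf4a, a transcription factor of both hepatocytes and intestinal cells, and next to Otc and Cps1 (both 0.990). Hnf4a was read at 696 and 826 in saline, at 20.8 and 151 at nicotine 1.5, and at 4.32 or lower at the higher doses. As with Fabp1, both saline arrays were above nicotine 1.5 replicate 2, and replicate 1 of that dose was the lower.

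How the genes differed with maternal nicotine was asked in a limma fit over all 8 arrays, which set each dose and the average of the 3 doses against saline. The 3 doses and their mean share the saline arrays. Since the saline arrays also differ from all nicotine arrays in stomach and intestinal genes, a difference with nicotine and a difference in the tissue that was sampled cannot be told apart. Since the 10 genes were chosen on these same arrays, their p-values are not independent of the choice. None of the 10 was higher in any comparison at an adjusted p under 0.05, as 0.728%, 1.35% and 2.91% of all genes were at the rising doses and 4.75% for their mean. Lower at that threshold were 1 of the 10 at nicotine 1.5 (1.75% of all genes tested), 2 at nicotine 3.0 (2.38%), 3 at nicotine 4.5 (3.97%) and 4 for the mean of the doses (5.4%). All 10 had a fold change below 0 in each comparison, with medians of -3.18, -6.32, -5.79 and -5.16 against medians of 0.04 to 0.07 for all genes.

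Fabp1 was lower than in saline in every comparison. Saline had a mean log2 level of 12.23 ± 0.37 (SD, n = 2), followed by 7.47 ± 2.18 at nicotine 1.5, 4.60 ± 0.02 at nicotine 3.0 and 4.50 ± 0.21 at nicotine 4.5. By limma with Benjamini-Hochberg adjustment its log2 fold change was -4.76 ± 0.86 (SE, adjusted p = 0.0438) at nicotine 1.5, -7.63 ± 0.86 (adjusted p = 0.00766) at nicotine 3.0 and -7.73 ± 0.86 (adjusted p = 0.00616) at nicotine 4.5. All 6 nicotine arrays lay below both saline arrays.

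Cps1 was lower than in saline at the higher doses. Saline had a mean of 10.76 ± 0.30 (SD, n = 2), followed by 7.10 ± 2.65 at nicotine 1.5, 4.81 ± 0.08 at nicotine 3.0 and 5.01 ± 0.48 at nicotine 4.5. The log2 fold change was -5.95 ± 1.05 (SE, limma adjusted p = 0.0330) at nicotine 3.0 and -5.76 ± 1.05 (limma adjusted p = 0.0289) at nicotine 4.5, and -3.66 ± 1.05 (limma adjusted p = 0.116) at nicotine 1.5, which did not pass. For the mean of the doses Fabp1 stood at -6.71 ± 0.70 (limma adjusted p = 0.00390) and Cps1 at -5.12 ± 0.85 (limma adjusted p = 0.0183).

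Of the plasma carriers, Ttr was lower at nicotine 4.5, at -7.34 ± 1.61 log2 units (limma adjusted p = 0.0450), and was at -7.62 ± 1.61 (limma adjusted p = 0.0547) at nicotine 3.0. For the mean of the doses Ttr was at -6.09 ± 1.32 (limma adjusted p = 0.0365) and Afp at -6.25 ± 1.51 (limma adjusted p = 0.0475), both past the threshold. Alb passed in no comparison: saline had a mean of 12.30 ± 0.71 (SD, n = 2), followed by 8.73 ± 5.03 at nicotine 1.5, 5.37 ± 0.09 at nicotine 3.0 and 5.33 ± 0.12 at nicotine 4.5. Its change for the mean of the doses was -5.82 ± 1.59 (limma adjusted p = 0.0627).

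The other 5 plasma proteins did not pass in any comparison. For the mean of the doses the fold changes were -4.72 for Ambp, -5.20 for Fga, -4.44 for Ahsg, -4.49 for Fgg and -4.10 for Fgb, with limma adjusted p between 0.0678 and 0.133. At nicotine 3.0 and at nicotine 4.5 both nicotine arrays lay below both saline arrays for all 10 genes, as they did for 25.5% and 24.8% of all genes. At nicotine 1.5 this held for 4 of the 10 (Afp, Ttr, Cps1 and Fabp1), against 21.6% of all genes. The genes were chosen on the levels in these same arrays, so the separation is a description and adds nothing to the tests. The standard errors of the 10 genes in the dose comparisons, 0.86 to 2.04 with a median of 0.24 for all genes, were all above the 95th percentile of 0.62.

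**Figure D5:**
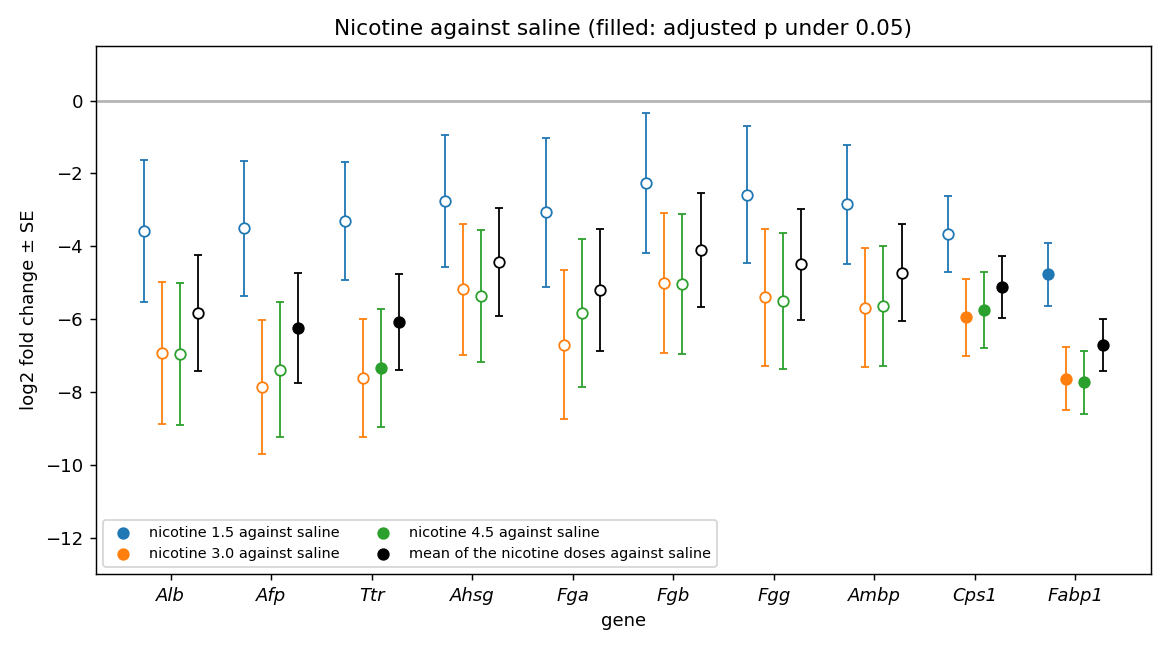
The plot gives the log2 fold change of each of the 10 genes against saline (points) with its standard error (bars) for each dose and for the mean of the doses, and filled points have a limma adjusted p under 0.05. All 40 points lie below 0, and those of nicotine 1.5 lie between -4.76 and -2.26, for each gene above its points for the other doses.

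The counts depended on single arrays. Without nicotine 1.5 replicate 2 the genes lower at the threshold were 6, 8, 9 and 10 of the 10 for the rising doses and their mean, with 1.25%, 2.74%, 4.48% and 4.87% of all genes lower in that fit. Without nicotine 1.5 replicate 1 they were 1, 8, 9 and 7, with 0.854%, 2.7%, 4.52% and 5.37% of all genes. Without saline replicate 1 they were 0, 1, 2 and 2, with 3.91%, 4.57%, 5.89% and 6.17% of all genes. Without saline replicate 2 they were 0, 1, 1 and 1, with 1.65%, 2.69%, 3.39% and 3.66% of all genes. Without either array of nicotine 3.0 they were 0, 0, 1 and 1, without nicotine 4.5 replicate 1 they were 0, 1, 0 and 1, and without nicotine 4.5 replicate 2 they were 0, 1, 0 and 2. In these last 4 fits 0.375% to 1.66% of all genes were lower at a dose, and 2.04% to 3.38% for the mean. Without both saline replicate 2 and nicotine 1.5 replicate 2, Fgb and Fgg did not pass the level filter and all 8 other genes were lower in each comparison, with 2.6%, 4.65%, 6.06% and 5.53% of all genes. Without nicotine 1.5 replicate 1 the fold change at that dose turned positive for Ahsg, Fga, Fgb and Fgg. Fabp1 passed for the mean of the doses in all 18 alternative settings tried, in 17 of 19 at nicotine 3.0 and at nicotine 4.5, and in 7 of 19 at nicotine 1.5. Cps1 passed in 13 of 19 at nicotine 3.0 and 14 of 19 at nicotine 4.5, Ttr in 7 of 19 at nicotine 4.5, and for the mean of the doses Cps1, Ttr and Afp passed in 14, 10 and 7 of 18.

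Among the other hepatocyte genes, few passed in the same fit, and none of the 18 carrier and inhibitor genes did in any comparison. At an unadjusted limma p under 0.05, 13 of these 18 were lower for the mean of the doses and none was higher. The share of all genes past an unadjusted p was not counted. Such counts, here and in the next paragraph, therefore have no background. For the mean of the doses, 1 of 17 coagulation genes fell (F10, -3.40 ± 0.76, limma adjusted p = 0.0389), 2 of 12 complement genes (C2 and Cfi), 3 of 6 urea cycle genes (Cps1, Otc and Asl), 1 of 16 amino acid and glucose enzymes (Fbp1) and 1 of 9 transporters (Abcc2, -2.98 ± 0.21, limma adjusted p = 0.000887). Of 10 transcription factors, 5 fell (Hnf4a, Nr1h4, Nr5a2, Foxa1 and Prox1) and 1 rose (Zhx2, 0.70 ± 0.14, limma adjusted p = 0.0292). Zhx2 is known to repress Afp after birth, but a link between them was not tested here. These passing genes are named because they passed, F10, C2, Asl, Abcc2, Nr1h4, Nr5a2, Prox1 and Zhx2 having been picked after their values were seen.

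The closeness of the saline arrays differed among these genes. Hnf4a, whose saline intensities were 696 and 826, stood at -4.62 ± 0.49 (limma adjusted p = 0.00390), and Otc, at 202 and 374, at -3.43 ± 0.39 (limma adjusted p = 0.00538). Hpx, at 265 and 2947, stood at -4.65 ± 1.28 (limma adjusted p = 0.0639). Genes with saline arrays far apart could also pass. Fbp1, at 604 and 3260, had a limma adjusted p of 0.0395, and F10, at 140 and 760, one of 0.0389. Beside these, all 14 intestinal genes above the filter and 9 of 11 stomach genes fell for the mean of the doses, and none of 8 kidney genes, 12 red cell genes or 3 pancreas genes did (5, 0 and 1 at an unadjusted limma p under 0.05). Choroid plexus had 2 of 6 lower (Folr1 and Clic6), and the macrophage, sinusoid and stellate cell list had 2 of 10 lower (Lrat and Colec10, picked after their values were seen). Of 8 palate genes 2 were higher (Meox2 and Tgfb3), and of 9 oral epithelium genes none changed (1 lower at an unadjusted limma p under 0.05). In whole tissue, fewer cells of a type and less RNA per cell cannot be told apart.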

How the data were processed

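The deposited values, made by the authors from 8 Affymetrix arrays, are in the unit intensity, linear and 1 per probe set. The labels do not say how they were summarized, background-corrected and scaled, and bright probe sets near the top of the scale can understate ratios. Depth does not apply, and precision is limited by the number of arrays. Of 45101 probe sets, 34945 named 1 gene in the platform annotation (34741 matched by Entrez ID), 932 several, 9160 none, and 64 were controls. Values were taken as log2(intensity + 16) and quantile normalized. Each gene was read from its probe set with the highest mean. Genes with a mean below 4.94, the 40th percentile over probe sets, were left out, and 13592 genes were tested. Group means over 8 arrays were fitted with limma 3.58.1 in R 4.3.3 (4 residual degrees of freedom), with two-sided tests and Benjamini-Hochberg adjustment over all genes tested. Differences between 2 single arrays were counted from 4-fold on, with no test. The procedure was tested on simulated data.

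The members and lists were chosen with earlier results of these data known. Named are all members, up to 4 genes per list with the highest level in any array, the 10 genes most correlated with the mean of the members and the 3 with each member. Other names are given as chosen after their values were seen. Alternatives varied the added constant, normalization, filter, probe set rule, array weights, replicate block, arrays fitted and arrays left out.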

Additional observations from a re-analysis of the deposited data

How the results depend on the processing

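Members counted as changed at nicotine 1.5 went from 1 to 0 with an added constant of 1, with values as deposited, with the mean of all probe sets, with array weights, with the replicate block, and with only the arrays compared. Array weights gave 4 at nicotine 3.0 and 2 for the mean of the doses, an added constant of 64 gave 2 for that mean, and only the arrays compared gave 6 at nicotine 3.0 and 6 at nicotine 4.5. With array weights the count over all genes moved the same way, above the 506 of the main fit at nicotine 3.0 and below its 1380 for the mean. With a constant of 64 that count stayed close to 1380. For only the arrays compared, the members were not set against all genes at these doses. Without both saline replicate 2 and nicotine 1.5 replicate 2, the count was 8 in each comparison. Leaving out 1 array gave 0 to 6, 0 to 8, 0 to 9 and 1 to 10 for the doses and their mean. Log2 fold changes reversed only at nicotine 1.5 without its replicate 1, where leaving out 1 array gave -5.66 to 0.15 for Ahsg, -6.63 to 0.50 for Fga, -5.15 to 0.65 for Fgb and -5.47 to 0.33 for Fgg. With an added constant of 1, 1 member was 4-fold apart between the arrays of nicotine 4.5, against 0. The causes were not tested, except that fits of fewer arrays rest on fewer residual degrees of freedom.

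Over all genes, 337, 506, 934 and 1380 were changed at nicotine 1.5, 3.0, 4.5 and for their mean. Across alternatives these counts ranged from 16 (only the arrays compared) to 912 (without saline replicate 1), from 52 (without nicotine 3.0 replicate 2) to 995, from 154 (without nicotine 4.5 replicate 2) to 1368, and from 355 (without nicotine 3.0 replicate 1) to 1491, each upper end without saline replicate 1. With the replicate block they were 157, 278, 522 and 844, and the members changed were 0, 2, 2 and 4. The sample titles number the replicates but do not say that equal numbers are paired. Deviations of same-numbered arrays from their group means correlated at -0.22 to 0.33 across genes, highest between saline and nicotine 1.5. These correlations do not settle whether samples were paired, and the block values are given here alone.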

Other observations

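Some genes on the hepatocyte lists kept a level in arrays where the 10 liver genes were low. Cebpa, a C/EBP transcription factor of liver and fat, was read at 313 and 349 in saline, at 278 and 304 at nicotine 1.5, at 689 and 747 at nicotine 3.0 and at 885 and 281 at nicotine 4.5. Rbp4, the carrier of retinol, was read at 761 and 3714 in saline, at 274 and 1582 at nicotine 1.5 and at 231 to 366 at the higher doses. Zbtb20, a repressor of Afp, was read at 222 to 488 in all arrays. On the list of macrophage, sinusoid and stellate cells, Lyve1, a surface protein of sinusoidal and lymphatic vessels, was read at 316 to 749 in all arrays. Colec11, a collectin of that list, was read at 41.6 and 258 in saline and at 6.48 and 74.6 at nicotine 1.5. At the higher doses Colec11 was read at 16.1 to 36.55.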
